A study of Mus musculus with 25 samples.

Results

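The p53 gene, Trp53, was described here with 9 of its target genes (Mdm2, Bax, Bbc3, Pmaip1, Trp53inp1, Ccng1, Plk2, Zmat3 and Phlda3), taken by symbol from a table of 30926 genes. All 10 genes had a single row, and all 10 passed the filter on low values. They were measured in KPC cells, a mouse pancreatic ductal adenocarcinoma line of C57BL/6 background, in 25 libraries that form 5 groups of 5. The first group was the parental line for 24 h in complete DMEM with 10% serum (control). The second was the same line for 24 h in DMEM without glutamine, with 10% dialysed serum (starved). If the control serum was not dialysed, dialysis and the lack of glutamine cannot be told apart. The other 3 groups were kept for the same 24 h in the same glutamine-free medium with 10% dialysed serum, while the lines were otherwise grown in DMEM with 10% serum. They carried either a luciferase hairpin as a control (shLuc) or 1 of 2 hairpins that target Slug (shSlug1 and shSlug2). Hairpin cells in complete medium were not among the groups. The sources used here do not give how the hairpins were delivered, whether a hairpin line is 1 clone, or whether replicates were separate cultures.

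p53 is a transcription factor that is held low by Mdm2, an E3 ubiquitin ligase whose own gene p53 activates. When released, it binds paired half-sites in DNA and turns on genes of growth arrest (Ccng1, Plk2, Trp53inp1), of apoptosis (Bax, Bbc3, Pmaip1), of RNA binding (Zmat3) and of survival signalling (Phlda3). Much of the control of p53 acts on the protein, which an mRNA level does not show. The KPC model carries a point-mutant Trp53 allele switched on in the pancreas, and tumours of this model commonly lose the other Trp53 copy. The sources used here do not give the Trp53 allele of this line or whether a wild-type copy remains, and a count of 3′ ends does not show the allele. Several of the targets are also known to answer to other transcription factors of stress.

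The stretches below show the ends of the range among the targets, Ccng1, which fell with starvation, and Plk2, which rose most, together with Bbc3, the apoptosis gene that Slug is known to repress in mouse blood progenitor cells. They are from RefSeq on GRCm38.p6, read 5′ to 3′ on the gene's strand, and lie before a start site and outside annotated exons. The Ccng1 stretch is chr11:40755312-40755536, minus strand, and its capitals mark the closest match to the p53 site, a 20-base pair of half-sites.
Ccng1: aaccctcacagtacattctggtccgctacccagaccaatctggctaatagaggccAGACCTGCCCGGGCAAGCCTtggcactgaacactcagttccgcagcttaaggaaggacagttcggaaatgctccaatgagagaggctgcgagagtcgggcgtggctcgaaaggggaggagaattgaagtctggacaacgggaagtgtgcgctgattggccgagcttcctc
The Plk2 stretch is chr13:110394794-110395043, plus strand, and its capitals mark TGACGTCA, the cyclic AMP response element.
Plk2: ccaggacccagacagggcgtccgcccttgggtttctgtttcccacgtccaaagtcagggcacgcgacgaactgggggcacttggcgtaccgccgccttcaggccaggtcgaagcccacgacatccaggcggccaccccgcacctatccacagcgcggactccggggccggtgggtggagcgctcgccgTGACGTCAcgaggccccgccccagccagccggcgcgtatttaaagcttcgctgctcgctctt
The first Bbc3 stretch is chr7:16309426-16309565, plus strand, with the closest match to the p53 site in capitals, and the second is chr7:16310021-16310087, plus strand, with the E-box CAGGTG, the kind of site Slug binds, in capitals in either orientation. Both lie inside the annotated Bbc3 gene, between its exons.
Bbc3, p53 site: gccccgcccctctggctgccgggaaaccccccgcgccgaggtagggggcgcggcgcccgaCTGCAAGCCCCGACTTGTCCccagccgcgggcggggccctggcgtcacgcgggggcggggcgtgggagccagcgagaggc
Bbc3, E-boxes: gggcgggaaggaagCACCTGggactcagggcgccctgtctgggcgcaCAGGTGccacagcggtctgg

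Windows from 250 bases before to 50 bases after a RefSeq start were found for 7 of the 10 genes, 9 windows in all, with 3 for Bbc3. The Ccng1 match differed from the p53 consensus at 1 of 20 positions, and 0.0884% of the 32817 windows of all genes held a match as close on either strand. The closest matches in Trp53, Bax and the first Bbc3 window differed at 3 positions, as in 6.29% of windows, and those of Mdm2, Plk2, Phlda3 and the second Bbc3 window at 5, as in 76.6% of windows. The third Bbc3 window differed at 6, as in 98.5%. Mdm2 is known to answer to p53 from its first intron, which this window does not cover. TGACGTCA stood in the Plk2 window alone among the 9, against 1.79% of all windows. CAGGTG stood in 2 of the 3 Bbc3 windows and in none of the other genes, against 20.2% of all windows on either strand. TGATGNAA, the core of the amino acid response element, was in none of the 9, against 3.97% of all. These matches are letters in a window and were not measured as binding.

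Values are in CPM, counts scaled to a library total of 1e+06, from libraries of 158729 to 549893 counts, so that 1 count was worth 1.82 to 6.30 CPM. The shallowest library was starved replicate 3. Mitochondrially encoded genes took 24.0% of the counts on average in control, 25.1% in starved, 19.8% in shLuc, 20.9% in shSlug1 and 16.2% in shSlug2. Of 7 ductal markers, 6 were present in all groups, and Epcam stood at a mean of 1.9 CPM or less. The summed ductal markers ran from 4049 to 5104 CPM in control, from 2104 to 2624 in starved and from 4912 to 6382 in shLuc, with 5064 to 5822 in shSlug1 and 5237 to 6373 in shSlug2. Krt18 made up most of these sums, at a mean of 2739 CPM in control, 1804 in starved and 5087 in shLuc. The means of Krt19, Krt8, Krt7 and Cdh1 were below control in every glutamine-free group, and that of Sox9 was above. Krt19, for example, had 684 CPM in control, 119 in starved and 211 in shLuc. Summed fibroblast, endothelial and islet markers reached at most 14.8, 12.9 and 9.45 CPM in any library, acinar markers 41.7 and leucocyte markers 81.5, the last almost all from Cd14. Their part in the results was not tested. In a bulk library, fewer cells that express a gene and less RNA per cell cannot be told apart. Snai2, the gene of Slug, averaged 7.54 ± 5.42 CPM in control, 79.5 ± 14.5 in starved and 55.9 ± 24.0 in shLuc, and 6.09 ± 3.75 and 4.29 ± 2.89 under the hairpins shSlug1 and shSlug2 (SD, n = 5 each, as for all means ± SD here), which follows the labels.

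**Figure D1:**
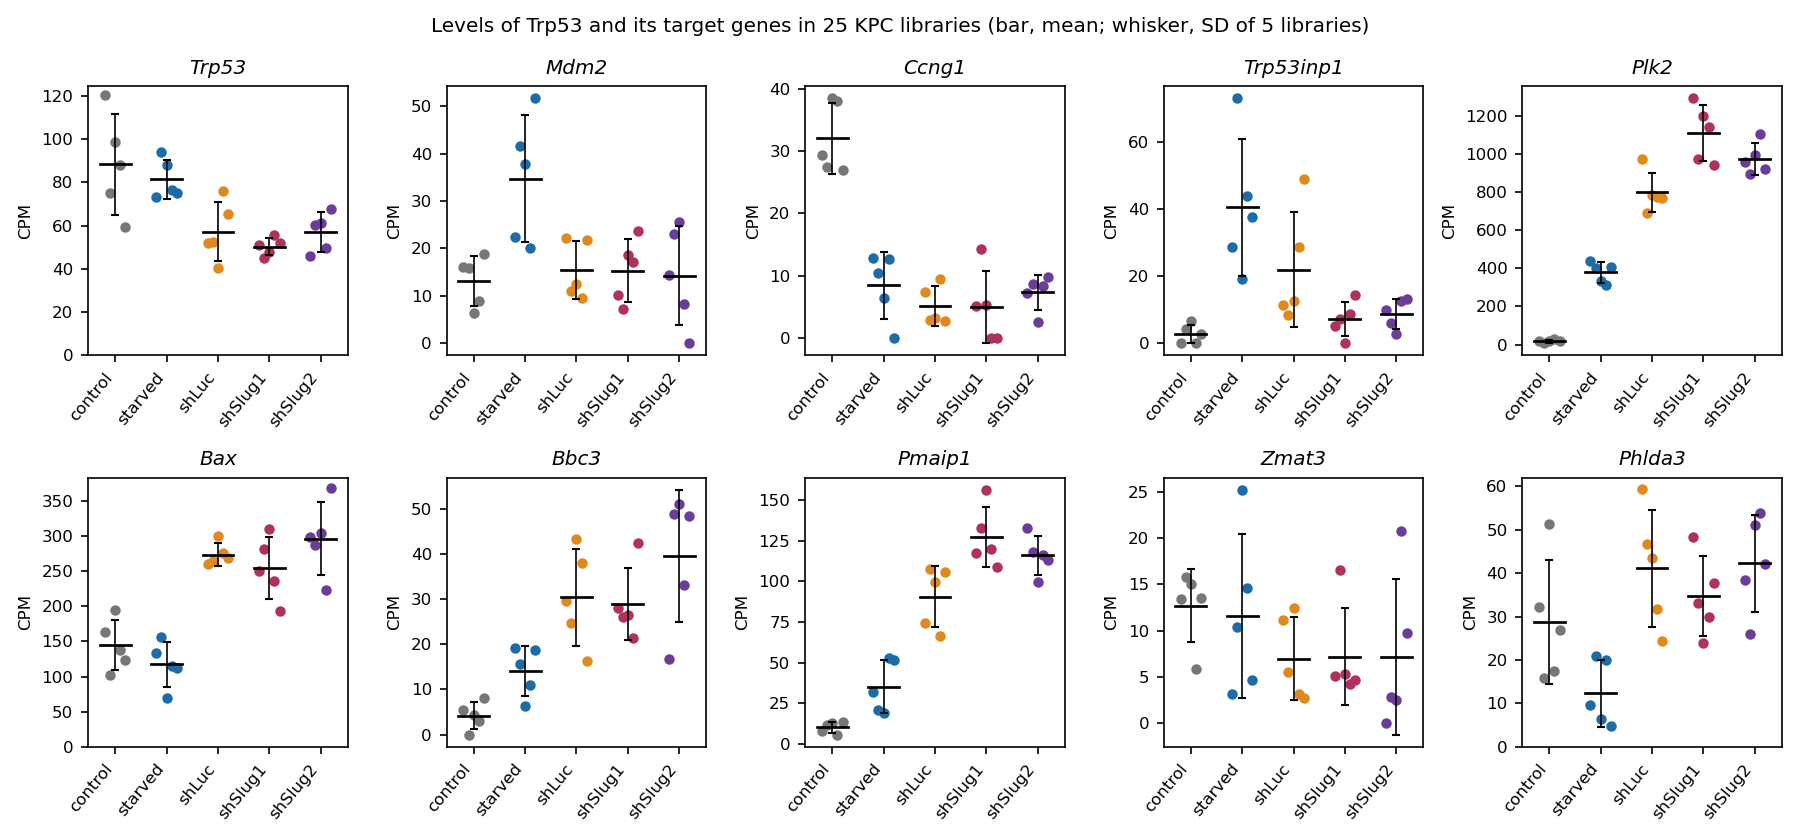
CPM of the 10 genes (1 panel each, vertical axes in CPM) in the 5 groups, with a point for each library, a bar at the mean and a whisker of 1 SD over 5 libraries. Plk2, Pmaip1 and Bbc3 climb from control to the hairpin groups, Ccng1 drops from control to all starved groups, and Bax is at 194 CPM or more in every hairpin library and 195 CPM or less in every parental one.

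With glutamine starvation of the parental line, p53 targets moved in both directions while Trp53 mRNA did not pass the test. Plk2, Trp53inp1, Pmaip1 and Bbc3 rose, Ccng1 and Phlda3 fell, and Trp53, Mdm2, Bax and Zmat3 did not pass the test. The 6 calls among 10 genes stand beside 22.4% of all 12473 genes tested, with 10.8% called higher and 11.7% called lower. The libraries of starved and control did not overlap in 5 of the 10, against 15.7% of all genes. The median log2 change of the 10 was 0.63 and that of all genes -0.06. The test was limma on log2(CPM + 1), with adjusted p over all genes tested.

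Trp53, on chromosome 11 from 69580359 to 69591873 on the plus strand, had 121, 74.8, 98.6, 87.9 and 59.4 CPM in the 5 control libraries and 73.3, 93.8, 88.2, 76.4 and 75.3 in the starved ones. The starved libraries lay inside the range of the controls. The means were 88.2 ± 23.2 and 81.4 ± 9.06 CPM, and the log2 change was -0.08 (SE 0.22, adjusted p = 0.85) with an interval at 95% from -0.53 to 0.37.

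Mdm2, the inhibitor of p53 (chromosome 10, 117688875 to 117710758, minus strand), had 16.1, 15.8, 6.43, 8.79 and 18.9 CPM in control and 22.3, 41.7, 37.8, 20.004 and 51.7 in starved. Every starved library was above every control library. The difference of 2.63-fold rested on 23 and 43 counts and did not pass the test (log2 1.34, SE 0.56, adjusted p = 0.077). It was called with edgeR (adjusted p = 0.013), DESeq2 (0.030), a pseudocount of 5 (0.018) and a fit of only these groups (0.028), over a range of 0.013 to 0.19 across all alternatives.

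Of the growth arrest genes, Plk2, a Polo-like kinase (chromosome 13, 110395046 to 110400844, plus strand), had 18.7, 7.88, 17.1, 29.3 and 16.2 CPM in control and 437, 401, 334, 311 and 409 in starved. The lowest starved library was more than 10-fold above the highest control library. The mean rose 21.2-fold (log2 4.42, SE 0.16, adjusted p = 6.8e-33). Trp53inp1, a nuclear protein that promotes p53 activity and autophagy (chromosome 4, 11156431 to 11174379, plus strand), had 0, 3.94, 6.43, 0 and 2.70 CPM in control and 28.7, 72.9, 18.9, 43.6 and 37.6 in starved. The zeros allow up to 8.03 and 8.79 CPM, and the groups did not overlap. Its rise, log2 3.82 (SE 0.67, adjusted p = 7.9e-06), rested on 5 counts in control and 58 in starved. Summed over libraries and scaled to the summed depth, the counts differed 14.7-fold, and counting error alone gave 5.94 to 46.9. Ccng1, cyclin G1, an early known p53 target (chromosome 11, 40748552 to 40755311, minus strand), went the other way. It had 29.5, 27.6, 38.6, 38.1 and 27.0 CPM in control and 12.8, 10.4, 6.30, 12.7 and 0 in starved, the zero allowing up to 14.1 CPM. All starved libraries were below all controls, with means 3.81-fold apart (log2 -2.25, SE 0.71, adjusted p = 0.015). The call was lost without starved replicate 5, the library at 0 (log2 -1.55, adjusted p = 0.11). Its window is the one that held the closest match to the p53 site among the 9.

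Of the apoptosis genes, Pmaip1, which encodes NOXA (chromosome 18, 66458533 to 66465565, plus strand), had 8.03, 11.8, 12.9, 5.86 and 13.5 CPM in control and 31.9, 20.8, 18.9, 52.7 and 51.7 in starved. The groups did not overlap, and the mean rose 3.38-fold (log2 1.60, SE 0.26, adjusted p = 1.4e-06). Bbc3, which encodes PUMA (chromosome 7, 16308393 to 16318205, plus strand), had 5.36, 0, 4.29, 2.93 and 8.10 CPM in control and 19.1, 15.6, 6.30, 10.9 and 18.8 in starved. Starved replicate 3, at 1 count, lay below the highest control library, and the zero allows up to 11.8 CPM. The mean rose 3.42-fold from 8 to 20 counts (log2 1.78, SE 0.47, adjusted p = 0.0033), a call that was lost in a fit of only these groups (adjusted p = 0.071). Bax, the pore former of mitochondrial apoptosis (chromosome 7, 45461697 to 45466898, minus strand), had 163, 102, 195, 138 and 124 CPM in control and 134, 156, 69.3, 115 and 113 in starved. The groups overlapped, and the log2 change of -0.31 (SE 0.17) did not pass the test (adjusted p = 0.19). Bax shares its strand with the overlapping gene Gm45808, at a mean of 7.73 CPM, which does not cover its 3′ end.

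Phlda3, an inhibitor of the AKT kinase (chromosome 1, 135766119 to 135769136, plus strand), had 32.1, 15.8, 51.4, 17.6 and 27.0 CPM in control and 9.56, 20.8, 6.30, 20.004 and 4.70 in starved. The highest starved libraries overlapped the lowest controls. The mean was 2.34-fold lower (log2 -1.25, SE 0.37, adjusted p = 0.0088), and the call was lost without control replicate 3 (adjusted p = 0.057) and in a fit of only these groups (0.089). Zmat3, a zinc finger protein that binds RNA and guides splicing (chromosome 3, 32334792 to 32366014, minus strand), had 13.4, 15.8, 15.0, 5.86 and 13.5 CPM in control and 3.19, 10.4, 25.2, 14.5 and 4.70 in starved. The starved libraries spread past both ends of the controls, on 16 counts in all, and the log2 change was -0.36 (SE 0.69, adjusted p = 0.79), with an interval from -1.79 to 1.08.

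**Figure D2:**
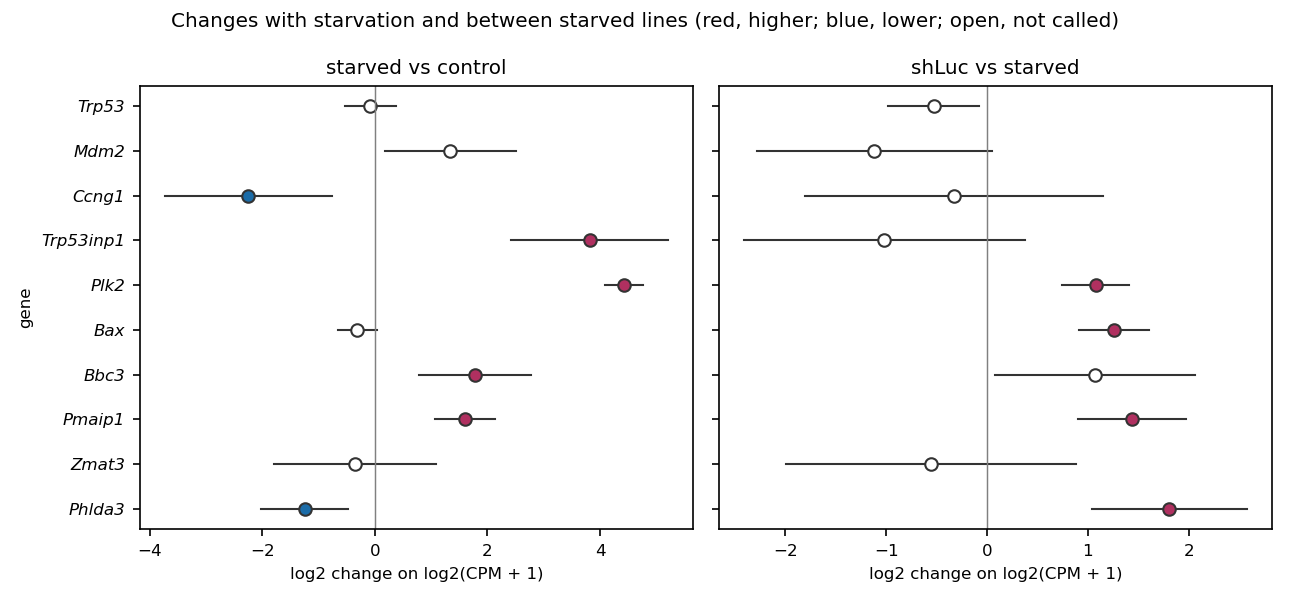
Log2 changes on the log2(CPM + 1) scale (horizontal axis) of the 10 genes with lines of the 95% interval, for starved against control (left) and shLuc against starved (right); red marks genes called higher, blue lower and open points not called. Plk2 lies farthest to the right on the left side at 4.42, Ccng1 and Phlda3 are left of 0, and on the right side Phlda3 lies above 0 at 1.81.

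The shLuc line was next compared with the parental line, both starved. The hairpin, the line and any batch of culture or library cannot be told apart in this comparison. The comparison shares the starved libraries with the one above, so the changes are not independent. Bax, Pmaip1, Plk2 and Phlda3 were higher in shLuc, and none of the 10 was called lower. These 4 calls stand beside 23.6% of all genes, with 13.5% called higher and 10.1% lower. Of all calls 57.1% were higher, against 48.1% without mitochondrial genes and 64.3% with TMM scaling. In addition, 4 of the 10 had libraries that did not overlap, against 14.6% of all genes. The median log2 change was 0.37 over the 10 and 0.10 over all genes.

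Bax had 260, 264, 301, 275 and 269 CPM in shLuc, and each library was above the 156 of the highest starved one. It rose 2.33-fold over starved (log2 1.26, SE 0.17, adjusted p = 2.1e-08), having not passed the test with starvation itself. Phlda3 had 59.3, 46.7, 43.4, 31.6 and 24.4 CPM in shLuc, all above the starved libraries, and was 3.35-fold higher (log2 1.81, SE 0.37, adjusted p = 0.00013), the opposite of its change with starvation. Plk2 and Pmaip1, which had risen with starvation, stood higher again in shLuc. Plk2 had 972, 690, 785, 775 and 771 CPM there, 2.11-fold over starved (log2 1.08, SE 0.16, adjusted p = 3.6e-07). Pmaip1 had 74.2, 107, 99.2, 66.5 and 106 CPM, 2.57-fold over starved (log2 1.44, SE 0.26, adjusted p = 1.5e-05). Neither overlapped the starved libraries.

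Bbc3 had 29.7, 24.7, 43.4, 38.0 and 16.3 CPM in shLuc, overlapping starved in 1 library, and its log2 change of 1.07 (SE 0.47) did not pass the test (adjusted p = 0.092), though it was called with edgeR (0.024) and with a pseudocount of 5 (0.043). Trp53 itself had 51.9, 52.2, 40.3, 76.0 and 65.1 CPM, a mean of 57.1 ± 13.7 against 81.4 in starved, and its log2 change of -0.53 (SE 0.22) missed the threshold (adjusted p = 0.065). It was called lower without the mitochondrial genes (adjusted p = 0.025), at a minimum of 20 CPM (0.042) and without shLuc replicate 4 (0.036). Mdm2 stood at 15.4 ± 6.12 CPM against 34.7 ± 13.4 (log2 -1.12, SE 0.56, adjusted p = 0.14), and was called lower with a pseudocount of 5 (adjusted p = 0.048) and in a fit of only these groups (0.048). Trp53inp1 ranged from 8.25 to 48.8 CPM in shLuc, Ccng1 from 2.71 to 9.49 and Zmat3 from 2.71 to 12.4, and none of these passed the test (adjusted p from 0.28 to 0.78). The mitochondrial share was lower in shLuc than in starved, and recomputing CPM without those genes kept the 4 higher calls.

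The Slug hairpins were then compared with shLuc, all without glutamine, to ask whether the level of Slug bears on these genes. With limma 0 of the 10 were called with shSlug1, beside 1.46% of all genes (0.369% higher and 1.09% lower), and 0 with shSlug2, beside 0.649% (0.473% higher and 0.176% lower). At an unadjusted p under 0.05, 2 of the 10 passed with shSlug1 and 0 with shSlug2. The share of all genes at that unadjusted threshold was not counted, here or below, so these counts have no background. edgeR called 2 genes with shSlug1, Plk2 and Trp53inp1, beside 298 of all 12473 genes. DESeq2 called 1, Plk2, beside 261 of the 4977 genes to which it gave an adjusted p. Neither tool called a member with shSlug2, beside 138 of 12473 genes with edgeR and 140 of 3042 with DESeq2. DESeq2 gave the other genes no adjusted p, so those of the 10 among them could not be called. The libraries did not overlap in 1 of the 10 with shSlug1, Pmaip1, against 3.13% of all genes, and in 0 with shSlug2, against 2.07%. The median log2 change of the 10 was -0.08 with shSlug1 and 0.08 with shSlug2, beside -0.09 and 0.01 for all genes.

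Bbc3 had 28.1, 26.1, 26.5, 21.4 and 42.5 CPM with shSlug1 and 16.9, 48.9, 51.1, 33.1 and 48.5 with shSlug2. Both sets overlapped shLuc, whose libraries ran from 16.3 to 43.4 CPM. The log2 change was -0.03 (SE 0.47, adjusted p = 0.99) with shSlug1, with an interval from -1.02 to 0.96, and 0.35 (SE 0.47, adjusted p = 0.91) with shSlug2, with an interval from -0.64 to 1.33. With 46 to 67 counts a group, a rise of 2-fold, log2 1, lies inside the interval for shSlug2 and just outside that for shSlug1, whose SE is the same.

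Plk2 had 1293, 974, 1199, 1141 and 945 CPM with shSlug1 and 956, 895, 993, 1106 and 921 with shSlug2. All but 1 of the shLuc libraries were below all of the Slug hairpin libraries. The mean was 1.39-fold over shLuc with shSlug1 (log2 0.47, SE 0.16, adjusted p = 0.12) and 1.22-fold with shSlug2 (log2 0.29, SE 0.16, adjusted p = 0.61). The shSlug1 difference was called with edgeR (log2 0.51, adjusted p = 0.0011), DESeq2 (5.7e-05) and a fit of only these groups (0.043), in a range of adjusted p up to 0.25 across all alternatives.

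Trp53inp1 had 11.1, 8.25, 12.4, 28.5 and 48.8 CPM with shLuc, 5.10, 7.11, 0, 8.58 and 14.2 with shSlug1 and 9.63, 5.76, 2.55, 12.4 and 12.9 with shSlug2. The shLuc libraries spread widely, and the lowest of them overlapped both hairpin groups. The log2 change was -1.65 (SE 0.67, adjusted p = 0.24) with shSlug1, called lower with edgeR only (adjusted p = 0.029), and -1.11 (SE 0.67, adjusted p = 0.66) with shSlug2. Pmaip1 had 117, 133, 156, 120 and 109 CPM with shSlug1, all above the highest shLuc library at 107, and 132, 118, 99.6, 116 and 113 with shSlug2. Its log2 changes were 0.50 (SE 0.26, adjusted p = 0.41) and 0.37 (SE 0.26, adjusted p = 0.73).

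Trp53 ranged from 45.0 to 55.8 CPM with shSlug1 and from 45.8 to 67.9 with shSlug2, inside the 40.3 to 76.0 of shLuc. Its log2 changes were -0.15 (interval -0.60 to 0.30) and 0.02 (interval -0.44 to 0.47, and below 0 under TMM and quantile scaling, without mitochondrial genes, with edgeR and with DESeq2). Bax ranged from 194 to 310 and from 224 to 368 CPM around the 260 to 301 of shLuc, with log2 changes of -0.12 (interval -0.47 to 0.23) and 0.10 (interval -0.25 to 0.45). Both intervals for Trp53 and Bax leave out a change of 2-fold in either direction. The remaining genes were low, with 10 to 71 counts a group. Mdm2 stood at 15.3 ± 6.64 and 14.3 ± 10.5 CPM, Ccng1 at 4.92 ± 5.81 and 7.28 ± 2.79, Zmat3 at 7.20 ± 5.26 and 7.17 ± 8.38 and Phlda3 at 34.7 ± 9.24 and 42.3 ± 11.1 with shSlug1 and shSlug2. Between the hairpins 0 of the 10 were called with limma, and 0 had an unadjusted p under 0.05, beside 0.513% of all genes called (0.489% higher and 0.0241% lower in shSlug2). edgeR called 0 of the 10 beside 90 of 12473 genes. DESeq2 called 0 beside 87 of the 3768 genes to which it gave an adjusted p, and could not call the others. None had libraries that did not overlap, against 2.08% of all genes, and the log2 differences ran from -0.62 for Mdm2 to 1.12 for Ccng1. Both ends involve libraries at 0, 1 of shSlug2 for Mdm2 and 2 of shSlug1 for Ccng1. The ratios of means, shSlug2 to shSlug1, were 0.93 and 1.48, and those of pooled counts scaled to depth 1.08 and 1.15.

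**Figure D3:**
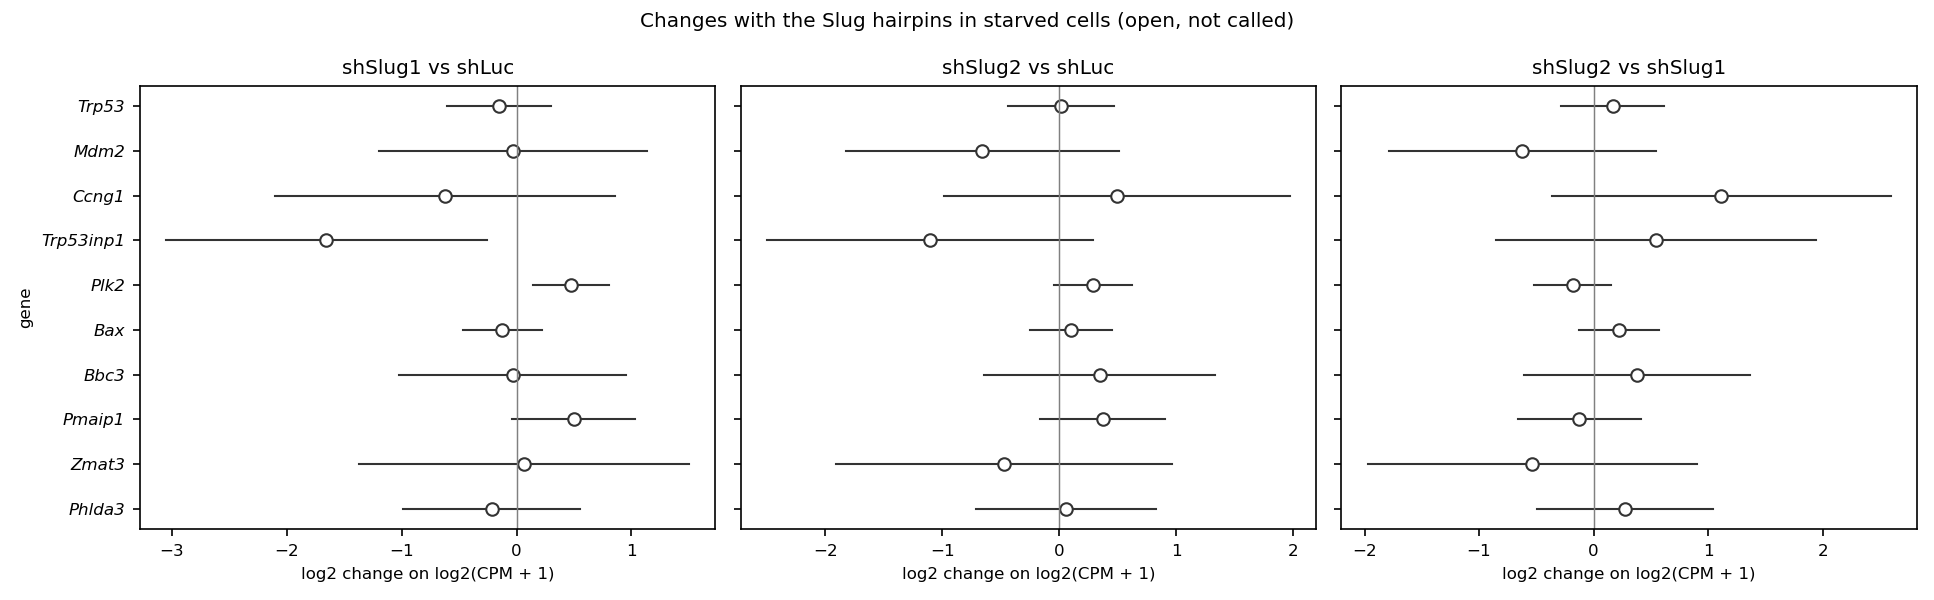
Log2 changes on the log2(CPM + 1) scale (horizontal axis) with lines of the 95% interval for shSlug1 against shLuc, shSlug2 against shLuc and shSlug2 against shSlug1. All points are open, as none of the 10 genes was called, and the intervals of Plk2 and Trp53inp1 with shSlug1 do not reach 0.

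Across the 5 groups the 10 genes followed several orders. Plk2 and Pmaip1 went up from control to starved to shLuc with no overlap between neighbours, and shLuc overlapped the Slug hairpin groups except for Pmaip1 with shSlug1. Bbc3 went from 4.13 CPM in control through 14.2 in starved to 28.9 in shSlug1, 30.4 in shLuc and 39.7 in shSlug2, and of these neighbours only starved and shSlug1 did not overlap. Ccng1 was highest in control at 32.1 CPM and at 8.44 or below in every starved group, and only control stood clear of its neighbour. Bax and Phlda3 were lowest in starved, followed by control, and each neighbour overlapped the next. Mdm2 and Trp53inp1 were highest in starved, with each neighbour overlapping the next. Trp53 and Zmat3 were highest in control, again with overlap at each step.

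Over the 25 libraries on the log2 scale, the pairs of the 10 genes that varied most alike were Pmaip1 and Plk2 (r = 0.90), Bbc3 and Plk2 (r = 0.87) and Bbc3 and Pmaip1 (r = 0.82), and the most opposed were Trp53 and Pmaip1 (r = -0.80). These values describe points that share groups and lines. Among 6278 genes of at least 20 CPM, the ones most like Plk2 were Ghitm, a mitochondrial inner membrane protein (r = 0.99), Ppp1r15a, the phosphatase subunit GADD34 (r = 0.98), and Nupr1, a stress-induced chromatin protein (r = 0.98). The ones most like Trp53 were Galnt2, Srrt and Ikbkap (r = 0.85, 0.85 and 0.82). The ones most like Ccng1 were the mitotic kinesin gene Kif20a, Anp32e and the claudin gene Cldn2 (r = 0.82, 0.82 and 0.80).

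Other genes known as p53 targets moved with starvation in both directions as well. Of 59 listed, 45 were tested, and 13 rose, 5 fell and 27 were not called, or 40.0% called beside the 22.4% of all genes. Their median log2 change was -0.04. The growth arrest gene Gadd45a rose to 133 ± 26.8 CPM from 3.04 ± 3.54 in control (log2 5.55, SE 0.31, adjusted p = 2.3e-23) and Cdkn1a, the cyclin-dependent kinase inhibitor p21, to 74.0 ± 10.3 CPM from 12.9 ± 7.13 (log2 2.61, SE 0.23, adjusted p = 8.9e-15). Cyclin G2, Ccng2, rose from 37.8 ± 12.8 to 152 ± 25.3 CPM (log2 2.02), the opposite of its relative Ccng1. The secreted stress cytokine gene Gdf15 rose from 4.09 ± 2.22 to 47.2 ± 24.0 CPM (log2 3.12) and the growth factor binding protein gene Igfbp3 from 23.6 ± 6.36 to 111 ± 13.4 (log2 2.23). Klf4, a zinc finger transcription factor, fell from 273 ± 20.6 to 96.7 ± 13.7 CPM (log2 -1.50, SE 0.17, adjusted p = 7.5e-11). In shLuc against starved 8 were higher and 3 lower, or 24.4% called, close to the 23.6% of all genes. They were led by Rap2b, a small GTPase (from 156 ± 29.9 to 376 ± 64.7 CPM, log2 1.27, adjusted p = 1.5e-09), and Cdkn1a (to 180 ± 26.3 CPM, log2 1.27, adjusted p = 1.5e-05). With shSlug1 0 of the 45 were called with limma, beside 1.46% of all genes. At an unadjusted p under 0.05 there were 5, and the share of all genes was not counted. With shSlug2 only Rap2b was called (2.22% of the 45, beside 0.649% of all genes), at 590 ± 126 CPM (log2 0.64, SE 0.15, adjusted p = 0.020). It was also called between the hairpins (log2 0.64, adjusted p = 0.023, 2.22% of the 45, beside 0.513% of all genes), with shSlug1 at 378 ± 76.0 CPM. Calls of single genes outside the 10, Rap2b among them, were not checked under the alternatives.

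**Figure D4:**
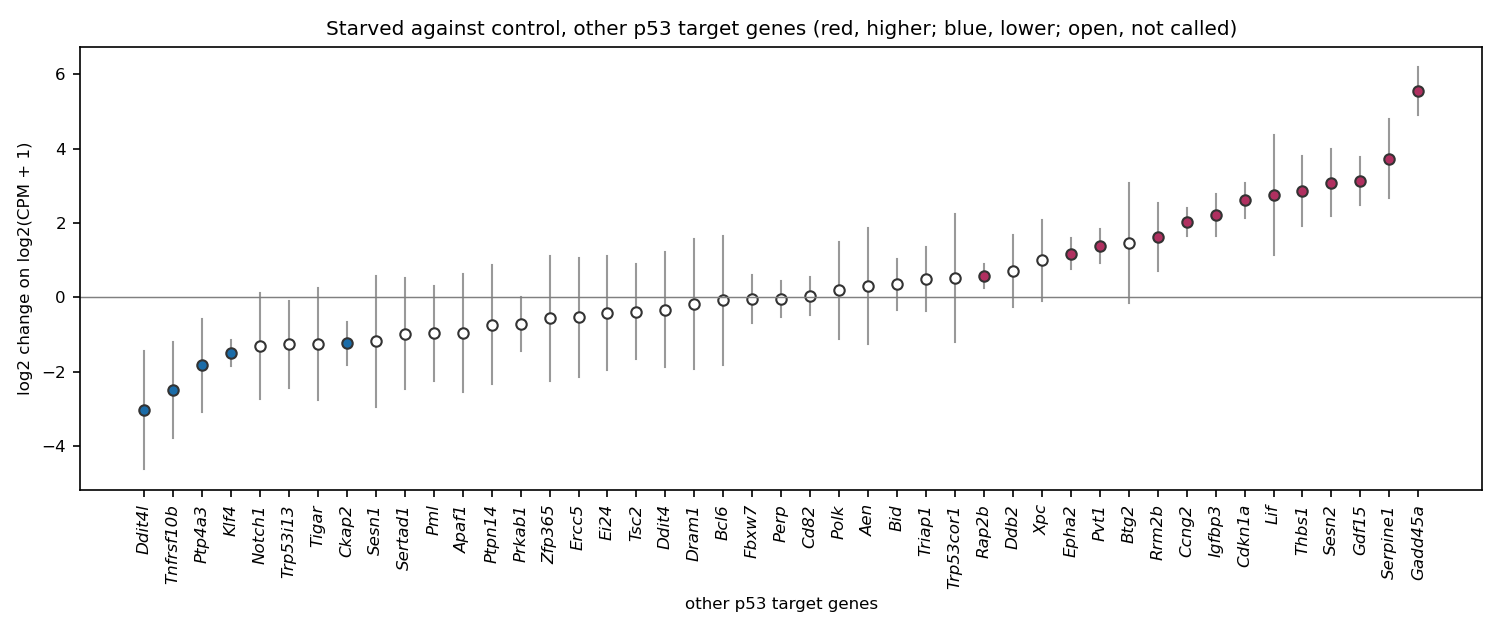
Log2 changes on the log2(CPM + 1) scale (vertical axis) of the 45 other p53 target genes tested, starved against control, in order of the change, with lines of the 95% interval. Red marks the 13 called higher, blue the 5 called lower and open points the 27 not called, from Ddit4l at -3.03 to Gadd45a at 5.55.

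Regulators and relatives of p53 were also tested. Of 30 listed, 28 were tested, and with starvation 3 rose, 4 fell and 21 were not called, beside 22.4% of all genes called. Trp53rka, a kinase that phosphorylates p53, rose to 32.0 ± 11.1 CPM from 12.5 ± 6.20 in control (log2 1.35, SE 0.30, adjusted p = 0.00042), and Csnk1a1, casein kinase 1 alpha, rose to 469 ± 32.1 from 346 ± 28.8 (log2 0.44, SE 0.12, adjusted p = 0.0035). Trim28, a corepressor that acts with MDM2, fell to 93.0 ± 21.0 CPM from 180 ± 26.8 in control (log2 -0.96, SE 0.25, adjusted p = 0.0023), and Rpl11, a ribosomal protein that binds MDM2, fell from 406 ± 77.0 to 278 ± 49.6 (log2 -0.54, SE 0.15, adjusted p = 0.0037). In shLuc against starved 4 were higher and 6 lower, 35.7% beside 23.6%. Cdkn2a, the locus of the p53 activator ARF and of the kinase inhibitor p16, which 3′ counts do not separate, was higher at 309 ± 97.3 against 103 ± 27.7 CPM (log2 1.56, SE 0.19, adjusted p = 3.5e-09). Huwe1, an E3 ubiquitin ligase of p53, was lower at 44.2 ± 18.7 against 133 ± 23.4 CPM (log2 -1.67, SE 0.26, adjusted p = 1.3e-06). With either Slug hairpin against shLuc 0 of the 28 were called with limma, beside 1.46% and 0.649% of all genes. At an unadjusted p under 0.05 there were 3 and 2, and the share of all genes was not counted.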

How the data were processed

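The authors deposited 1 table of CPM values for 25 libraries, from libraries of transcript 3′ ends (QIAseq UPX, per the labels' protocols). The build was mm10, per the submitters' processing notes. The sources used here do not give the aligner, the annotation, strand, or how molecular identifiers and reads shared between loci, such as Trp53 and its processed pseudogene, were counted. Each column summed to 1e+06, and 100% of values were whole multiples (tolerance 0.001) of the column's smallest step, which recovers the counts and depths behind the deposited CPM. The 12473 genes that reached 5 CPM in 5 or more libraries were fitted together over the 5 groups, as log2(CPM + 1), by limma-trend (version 3.58.1 under R 4.3.3) with 20 residual degrees of freedom, two-sided, with Benjamini-Hochberg adjustment over all genes, called at an adjusted p under 0.05. The added 1 CPM can understate the change of low genes on this scale, while a library at 0 can enlarge it. Mdm2 had 1 library at 0 in shSlug2, and its log2 change against shLuc was -0.66 beside a ratio of means of 0.93. The 95% intervals of log2 changes used 20 degrees of freedom. The limma p-values used more, so an interval can include 0 at an unadjusted p under 0.05. The p-values measure the spread between these libraries, which may be technical. edgeR 4.0.16 and DESeq2 1.42.0 were run on the recovered counts. All tests were tried on simulated counts. Zeros were given a limit of 3 counts, and ratios of pooled counts, scaled to the summed depth, have exact binomial intervals at 95%. Both cover counting error only. Coordinates are those of GENCODE M21, counted from 1.

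The 10 genes and the lists were chosen with earlier results of these data known. The rule named all 10 genes, Snai2, up to 6 other targets and 4 regulators with the smallest p with starvation, up to 2 of each called in every other comparison, and the 3 genes of at least 20 CPM most like Trp53, Ccng1 and Plk2. Alternatives tried were other pseudocounts (0.5 or 5), testing every gene or only those reaching 20 CPM, scaling by TMM or by quantiles, CPM recomputed without mitochondrial genes, fitting the compared groups alone, a replicate block, the count tools edgeR and DESeq2, and removal of each library in turn. Replicate numbers are shared between groups, but the deviations of same-numbered libraries from their group means correlated at -0.06 to 0.04 over 25 pairs.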

Additional observations from a re-analysis of the deposited data

Results flagged for a closer look

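In 2 of the 50 sets of 5 libraries, 1 library stood far from the others relative to the range of its group, both for Zmat3; chance gives such a gap in about 1 in 20 sets. Control replicate 4 had 5.86 CPM, with the next library at 13.4 and the highest at 15.8, and shSlug1 replicate 2 had 16.6 CPM, with the next at 5.29 and the lowest at 4.29. They rested on 2 and 7 counts.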

How the results depend on the processing

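The calls of Plk2, Pmaip1 and Trp53inp1 with starvation and those of Bax, Pmaip1, Plk2 and Phlda3 in shLuc against starved held under every alternative run. With a pseudocount of 5 the starvation changes of Bbc3 and Trp53inp1 shrank to 1.08 and 2.54, as that pseudocount pulls low genes towards 0. The number of the 10 genes called with shSlug1 moved from 0 to 1 in a fit of only the groups compared, to 2 with edgeR and to 1 with DESeq2. These stand beside 121 and 298 of 12473 genes and 261 of 4977, and the cause was not tested. Leaving out 1 library gave 5 to 6 calls with starvation, beside 2484 to 2720 of 12473 genes. In shLuc against starved it gave 4 to 5, beside 2537 to 2912. It gave 0 with shSlug1 (99 to 197 of all genes), with shSlug2 (57 to 80) and between the hairpins (37 to 79). With the replicate block the calls were 6, 4, 0, 0 and 0, the same numbers as without it, beside 2774, 2930, 182, 76 and 57 of 12473 genes. The block changed none of the calls of the 10 genes. Replicate numbers do not pair the libraries by the check of their deviations, where the own number gave the best match in 5 of 25 pairs.

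Changes of sign occurred among differences that passed no test, and their cause was not tested. With shSlug1 they were Mdm2 (0.072) and Bbc3 (0.091) with quantile scaling, Ccng1 with edgeR (0.32), and Bax (0.032) and Ccng1 (0.60) without starved replicate 3 and shSlug1 replicates 4 and 5, an alternative added after seeing the data. With shSlug2 they were Trp53 with TMM (-0.0015) and quantile scaling (-0.0012), without mitochondrial genes (-0.047), with edgeR (-0.020) and with DESeq2 (-0.035), Bax with quantile scaling (-0.011) and Phlda3 without mitochondrial genes (-0.0013). Between the hairpins they were Mdm2 with edgeR (0.047) and Ccng1 without those 3 libraries (-0.11). Leaving out 1 library, log2 changes ran from -0.21 to 0.039 for Trp53 with starvation. With shSlug1 they ran from -0.21 to 0.19 for Mdm2, from -0.23 to 0.11 for Bbc3 and from -0.25 to 0.30 for Zmat3. With shSlug2 they ran from -0.10 to 0.12 for Trp53, from -1.02 to 0.17 for Mdm2, from -0.998 to 0.11 for Zmat3 and from -0.11 to 0.22 for Phlda3. Between the hairpins they ran from -0.98 to 0.20 for Mdm2, from -0.094 to 0.89 for Trp53inp1 and from -1.06 to 0.047 for Zmat3.

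Of all genes, limma called 182 with shSlug1 (25.3% higher), 121 in a fit of only these groups, 298 with edgeR and 99 without shLuc replicate 5; 35.8% were higher with quantile scaling or without mitochondrial genes, 50.7% with edgeR and 57.1% with DESeq2. With shSlug2 it called 81 (72.8% higher), 138 with edgeR and 140 with DESeq2, with 54.3% higher after quantile scaling and 56.4% without mitochondrial genes. Between the hairpins it called 64 (95.3% higher), 38 with TMM, 34 without the 3 libraries and 37 without shSlug2 replicate 4, with 78.8% higher without mitochondrial genes, 71.1% with edgeR and 63.2% with DESeq2. Depth limits Ccng1, Zmat3, Bbc3, Mdm2 and Trp53inp1, which had 5 to 67 counts a group.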
